A study of Mus musculus with 48 samples.

Results

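The genes described here encode the part of the mitochondrial respiratory chain that lies after complex I. They were the protein-coding genes with the symbols Sdha, Sdhb, Sdhc, Sdhd, Cyc1 and Cycs, and those whose symbols start with Sdhaf, Uqcr, Uqcc or Atp5 or with Cox and a number from 4 to 20. The rule found 65 of 21883 protein-coding genes in the reference table of mouse genes (mm10). By role, 4 encode complex II and 4 its assembly factors, 9 encode complex III and 3 its assembly factors, 18 encode complex IV and 9 its assembly factors, 17 encode complex V, and Cycs encodes cytochrome c. The members were chosen by their symbols, not by a measured value.

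Complex II (succinate dehydrogenase) oxidises succinate and passes electrons to ubiquinone, complex III moves them from ubiquinol to cytochrome c, complex IV (cytochrome c oxidase) passes them to oxygen, and complex V (ATP synthase) uses the resulting proton gradient to make ATP. Nearly all their subunits are encoded in the nucleus, many under promoters with sites for NRF1, ETS-family factors such as GABP, and YY1. ZBTB11 and ZFP131 are zinc-finger proteins that bind DNA. NELF (negative elongation factor) holds RNA polymerase II shortly after the start of transcription, SIN3A is the scaffold of a histone deacetylase complex, CHD4 is a remodeller of the NuRD complex, and SETD1A methylates histone H3 at lysine 4.

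ChIP-seq, which sequences DNA bound by a chosen protein or histone mark, had been run on 48 samples of mouse embryonic stem cells, 2 per group in 24 groups, for 9 targets. The wildtype line was Ainv15(iCre). The Zbtb11KO line was Ainv15(iZbtb11-HA Zbtb11KO), which lacks Zbtb11 and carries an HA-tagged copy that doxycycline turns on. The Zfp131KO line was Ainv15(iZfp131-HA Zfp131KO), made the same way, and the double knockout carried iZbtb11-HA and iZfp131-V5 in cells lacking both genes. All groups but the HA groups had spent 3 days in LIF with neither doxycycline nor the pair of kinase inhibitors that hold these cells in the naive state (-2i+LIF). The HA groups, which map ZBTB11 and ZFP131 themselves, had doxycycline for 3 days in +2i+LIF, so binding and the knockout effects were measured in different media. Each genotype is named as 1 line, so line and genotype cannot be told apart, and the labels do not say whether the 2 libraries of a group came from separate cultures. The double knockout had no wildtype group of its own, so library batch cannot be told apart from its genotype. In bulk chromatin, fewer cells with a mark and less of the mark per cell cannot be told apart. The deletions were not checked here.

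The files held binding events or domains called on pooled libraries of a group, with their reads, and the authors' tables of DESeq2 fold changes between a knockout and wildtype. Reads per group in the event lists ran from 24.0 M (mega-reads; ZFP131-HA) to 71.6 M (NELF, double knockout); domain lists gave no total. The wildtype NELF list named 1 replicate in its header and the other NELF lists 2. In wildtype, pluripotency genes had an H3K4me3 domain in 9 of 10 cases, H3K27ac in 8 and H3K27me3 in 4. Neural genes had H3K4me3 and H3K27me3 in 5 of 5 cases and H3K27ac in 1, and fibroblast genes H3K4me3 and H3K27me3 in 4 of 6 and H3K27ac in 0. Primitive endoderm genes had H3K4me3 in 6 of 8 cases, H3K27ac in 3 and H3K27me3 in 7. Trophectoderm genes had them in 3, 1 and 4 of 5. In each single knockout, H3K4me3 stood at 9 of 10 pluripotency genes and at 7 of 8 primitive endoderm genes. H3K27ac stood at 9 of 10 pluripotency genes in both, and at 1 (Zbtb11KO) and 2 (Zfp131KO) of 8 primitive endoderm genes. H3K27me3 stood at 7 of 8 primitive endoderm genes in both, and at 4 (Zbtb11KO) and 5 (Zfp131KO) of 10 pluripotency genes. A gene was given every event, domain or table region within 1 kb of either of its ends.

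Promoters are shown for the 4 members with the most ZBTB11 reads and for Uqcrfs1, whose ZFP131 event was the strongest of any member. Each covers 250 bases before to 50 after the annotated start (RefSeq, GRCm38.p6), 5′ to 3′ on the gene's strand. Capitals mark matches, on either strand, to the letters GCATGCG (NRF1), CCGGAAG (ETS), AAGATGG (YY1), GGGCGG (GC box), CCAAT and TATAAA. They lie at chr6:6955768-6956067 (Sdhaf3, plus strand), chr16:84834927-84835226 (Atp5j, minus), chr12:81485088-81485387 (Cox16, minus), chr4:116075021-116075320 (Uqcrh, minus) and chr13:30545267-30545566 (Uqcrfs1, minus).
Sdhaf3: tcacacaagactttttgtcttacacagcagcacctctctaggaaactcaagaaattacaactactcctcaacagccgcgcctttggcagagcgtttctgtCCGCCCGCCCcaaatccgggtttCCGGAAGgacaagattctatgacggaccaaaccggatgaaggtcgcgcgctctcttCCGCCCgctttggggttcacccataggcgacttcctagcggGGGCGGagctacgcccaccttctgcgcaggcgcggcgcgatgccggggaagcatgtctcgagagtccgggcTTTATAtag
Atp5j: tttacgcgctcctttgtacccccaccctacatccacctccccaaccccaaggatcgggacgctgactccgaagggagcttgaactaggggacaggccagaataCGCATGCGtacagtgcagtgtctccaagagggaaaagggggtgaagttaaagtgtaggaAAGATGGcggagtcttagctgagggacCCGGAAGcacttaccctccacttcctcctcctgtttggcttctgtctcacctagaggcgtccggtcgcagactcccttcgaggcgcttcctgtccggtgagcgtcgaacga
Cox16: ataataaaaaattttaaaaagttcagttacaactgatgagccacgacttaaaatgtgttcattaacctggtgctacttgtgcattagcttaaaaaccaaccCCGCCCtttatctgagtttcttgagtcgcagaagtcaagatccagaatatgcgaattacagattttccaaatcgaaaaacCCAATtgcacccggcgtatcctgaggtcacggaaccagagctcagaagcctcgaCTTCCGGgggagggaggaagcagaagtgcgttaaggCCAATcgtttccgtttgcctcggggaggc
Uqcrh: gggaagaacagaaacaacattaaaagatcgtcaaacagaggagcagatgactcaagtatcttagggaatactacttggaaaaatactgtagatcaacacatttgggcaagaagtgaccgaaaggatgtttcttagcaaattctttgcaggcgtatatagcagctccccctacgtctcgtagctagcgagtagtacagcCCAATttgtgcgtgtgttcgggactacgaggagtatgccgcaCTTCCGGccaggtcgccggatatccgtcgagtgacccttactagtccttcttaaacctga
Uqcrfs1: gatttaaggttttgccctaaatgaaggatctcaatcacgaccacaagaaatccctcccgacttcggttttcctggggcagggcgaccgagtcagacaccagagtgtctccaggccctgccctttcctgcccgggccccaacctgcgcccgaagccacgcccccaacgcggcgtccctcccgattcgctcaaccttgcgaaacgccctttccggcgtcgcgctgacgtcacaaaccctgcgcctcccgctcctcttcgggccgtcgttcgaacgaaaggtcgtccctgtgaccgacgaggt
All 4 ZBTB11 promoters hold an ETS match, and the window of Uqcrfs1 holds none of the 6 motifs. The strongest ZBTB11 event of Sdhaf3 lay 136 bp upstream of the start (chr6:6955882), that of Atp5j 87 bp upstream (chr16:84835063), that of Cox16 17 bp downstream (chr12:81485120) and that of Uqcrh 12 bp downstream (chr4:116075058). The ZFP131 event of Uqcrfs1 lay 15 bp downstream of its start (chr13:30545301).

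The same letters were counted in all annotated windows of this length. The table held 55 windows for 51 members; 14 members had none. ETS letters stood in 22 of the 55 member windows (40.0%), against 8.86% of 32851 windows of all genes and 15.6% of the 13988 windows of genes with wildtype H3K4me3. NRF1 letters stood in 9 (16.4%, against 3.58% and 5.73%) and YY1 letters in 7 (12.7%, against 6.34% and 6.46%). GC boxes stood in 28 (50.9%), between the 35.7% of all genes and the 62.0% of genes with H3K4me3. CCAAT also stood in 28 (50.9%, against 37.4% and 37.5%), and TATAAA in 6 (10.9%, against 13.6% and 7.28%). Median GC was 57.7% in member windows, 52.7% in all windows and 60.7% in those of genes with H3K4me3. A match is a run of letters, not a measured site.

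Most of these promoters were active in wildtype cells. Of the 65 genes, 58 (89.2%) had an H3K4me3 domain within 1 kb of an end, against 64.2% of all genes. H3K27ac was listed at 54 (83.1%, against 46.2%), polymerase labelled POL2 5SP at 61 (93.8%, against 57.4%) and NELF at 58 (89.2%, against 59.3%). H3K27me3, the Polycomb mark of silent genes, was listed at 3 (4.62%, against 24.6%). SIN3A was listed at 58 (89.2%, against 60.5%), SETD1A at 49 (75.4%, against 43.7%) and CHD4 at 8 (12.3%, against 11.3%). The 7 genes with no H3K4me3 domain at an end were Atp5pb, Cox7b2, Cycs, Cox8b, Cox5a, Cox7a2 and Atp5g2, and 4 of them held one inside the gene model. Cox5a, a core nuclear subunit of complex IV, had a domain of 5982 reads 3153 bp from its nearest end, which the window did not reach.

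Since the background of all genes holds many silent genes, the shares were also set against genes with wildtype H3K4me3. Within those 58 members, H3K27ac stood at 93.1% (70.2% of all such genes), NELF at 98.3% (89.7%), POL2 5SP at 94.8% (82.4%), SETD1A at 82.8% (67.5%) and SIN3A at 96.6% (91.2%). CHD4 stood at 13.8% (17.2%) and H3K27me3 at 5.17% (35.0%). The domains were also dense: H3K4me3 reads per kb of domain had a median of 1660 over members and 1200 over all genes with a domain, and 48 of 58 members lay above the latter. For H3K27ac the medians were 354 and 285 reads per kb (42 of 54 above), and for POL2 5SP 472 and 392 (40 of 61 above).

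Cyc1, the heme-bearing cytochrome of complex III, had 2570 H3K4me3 reads per kb, rank 68 of 14051 genes. For POL2 5SP, Cyc1 had 196 reads per kb over 163 bp, rank 12523 of 12553. Cox20, an assembly factor of complex IV, ranked 139 of 10102 for H3K27ac with 646 reads per kb. For POL2 5SP the leading member was Cox6b2, the testis form of a complex IV subunit, with 1460 reads per kb and rank 151 of 12553. Its POL2 5SP domain of 3677 bp was longer than the gene and so ran past it. SETD1A was strongest at Cox4i1, the common form of complex IV subunit IV, with 1267.8 reads (rank 98 of 9564), followed by Cyc1 with 1204.6 (rank 129). SIN3A was strongest at Atp5b, the catalytic beta subunit of ATP synthase, with 1538.4 reads (rank 174 of 13231), and CHD4 at Cox5b with 193.5 reads (rank 41 of 2474). These sums cover both gene ends. Baz2a lies beside Atp5b and Emc8 beside Cox4i1, so part of the reads there may belong to those neighbours.

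**Figure D1:**
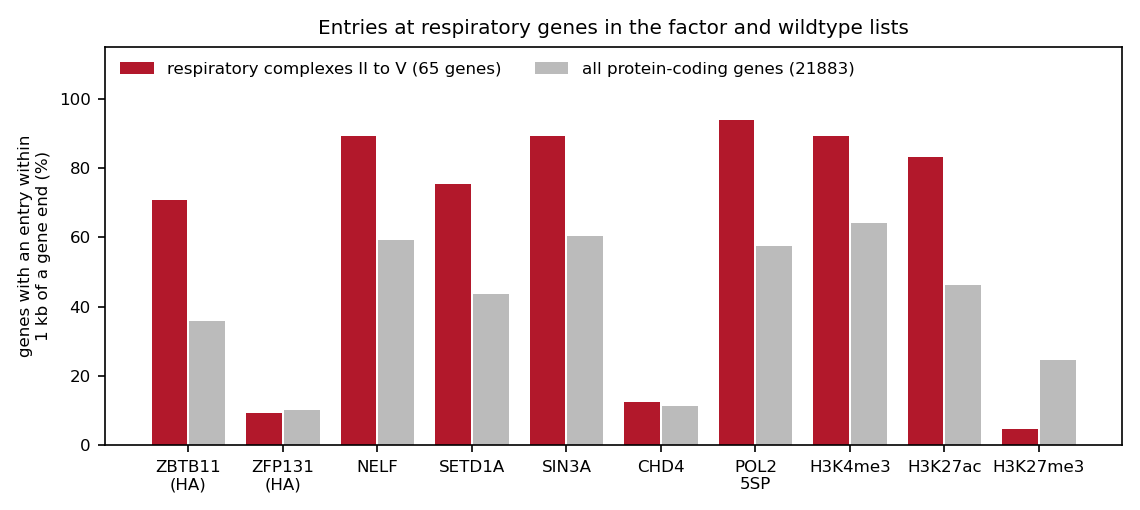
Share of genes with an entry within 1 kb of a gene end (vertical axis, %), for ZBTB11 and ZFP131 (HA) and for each wildtype list, in respiratory genes and in all protein-coding genes. ZBTB11 stood at 70.8% of the respiratory genes and ZFP131 at 9.23%.

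ZBTB11 was listed at 46 of the 65 genes (70.8%), against 35.9% of all genes, and at 79.3% of members with wildtype H3K4me3 against 55.1% of all genes with it. ZFP131 was listed at 6 (9.23%), against 10.2% of all genes, and at 10.3% against 15.8% of genes with H3K4me3. By role, ZBTB11 stood at 3 of 4 complex II genes, 4 of 4 of its assembly factors, 7 of 9 complex III genes, 2 of 3 of its assembly factors, 10 of 18 complex IV genes, 7 of 9 of its assembly factors, 13 of 17 complex V genes and not at Cycs. Summed ZBTB11 reads had a median of 210 over the bound members (49.3 to 2400) and 120 over the 7865 bound genes.

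The 3 leading members stood well above the rest. Sdhaf3, which helps mature the iron-sulfur subunit of complex II, held 2398 ZBTB11 reads, and its strongest event (2039.8 reads) ranked 131 of 22448. Atp5j, a peripheral stalk subunit of complex V, held 1977 reads in 4 events, 3 of them also within 1 kb of Gabpa, the DNA-binding subunit of GABP, so those reads cannot be given to 1 gene. Cox16, an assembly factor of complex IV, held 1848 reads, with an event of 1492.6 ranked 328. These 3 were the only bound members in the top decile of bound genes, which starts at 822 reads. Next came Uqcrh (706, beside Lrrc41), Cox15, the heme A synthase (593, beside Cutc), Cox5b (525), Cox8a (519) and Atp5k (439). Of the 35 members whose strongest event could be set against an annotated start, 22 had it within 250 bp and 30 within 500 bp, with a median of 77 bp downstream.

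ZFP131 was strong at Cox18, which inserts a mitochondrially encoded subunit into the inner membrane (1494 reads), and at Uqcrfs1, the Rieske iron-sulfur protein of complex III (1426 reads). Their strongest events held 1219.8 and 1250.1 reads and ranked 209 and 191 of 3637. The other 4 members held fewer reads: Sdha 119 (beside Ccdc127), Atp5j 100 (beside Gabpa), Cox20 90 and Cox7a2l 59. None reached 1750 reads, where the top decile of ZFP131 genes starts. The ZBTB11 event held 155.1 reads at Cox18 and 52.4 at Uqcrfs1. Sdha, the flavoprotein of complex II, was the single ZFP131 gene of the 6 without ZBTB11.

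**Figure D2:**
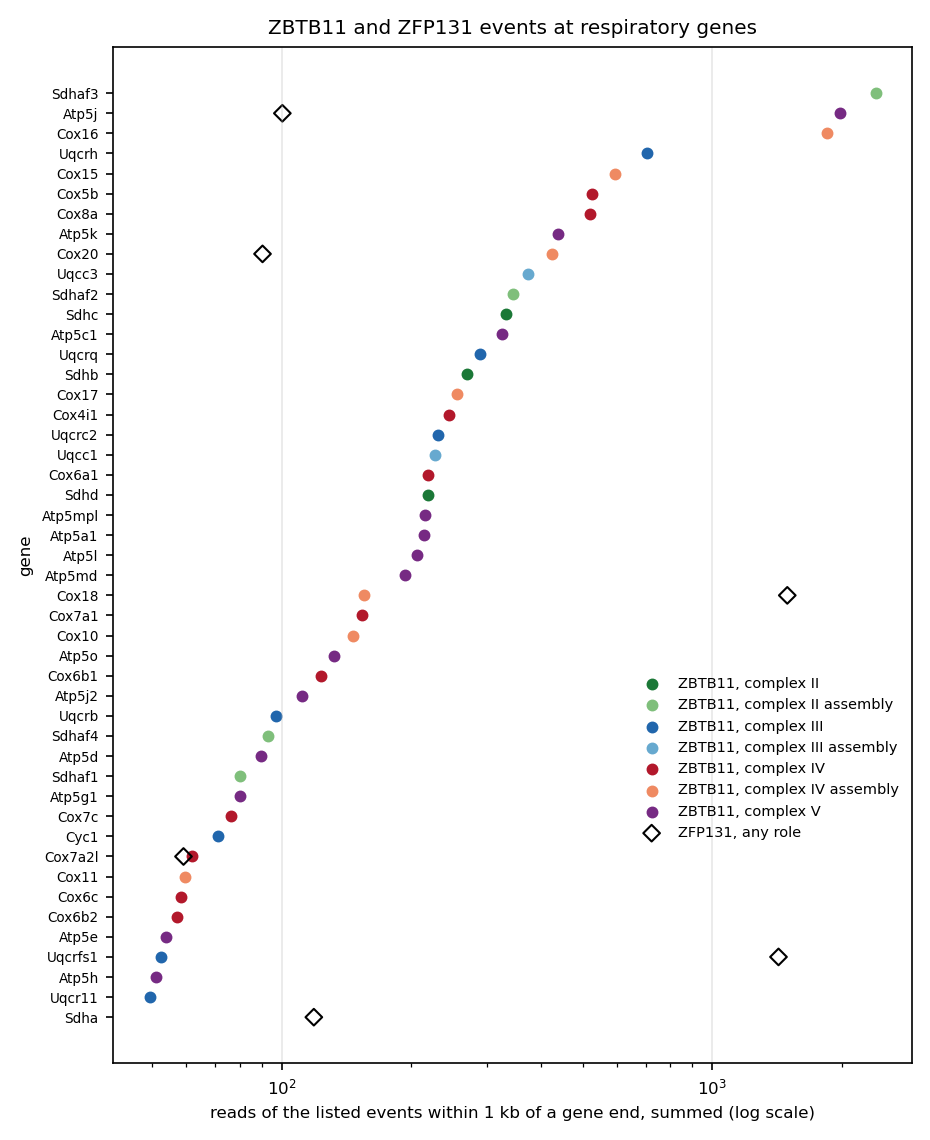
Reads of listed ZBTB11 events (filled, coloured by role) and ZFP131 events (open diamonds) within 1 kb of an end, summed per gene on a log axis. Sdhaf3, Atp5j and Cox16 lead for ZBTB11, and Cox18 and Uqcrfs1 for ZFP131.

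NELF reads lay below wildtype at nearly all of these genes in each knockout and were fewest in the double knockout, as over all genes. Values are reads of the listed events within 1 kb of an end per 10 M reads of the group, and each comes from a pooled list with no spread between libraries. The share of all reads in NELF events was 23.1% in wildtype, 9.8% and 11.4% in the Zbtb11 and Zfp131 knockouts, and 5.1% in the double knockout. The lists held 60923, 18009, 20265 and 9946 events in the same order. Events that were not called add no reads to a gene's sum. In complex II, Sdha held 238 in wildtype, 158 without Zbtb11, 170 without Zfp131 and 86.5 without either. In complex III, Uqcrh held 285, 144, 147 and 72.0, and Cyc1 held 278, 189, 219 and 87.6. Wildtype was highest and the double knockout lowest at these 3 genes.

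In complex IV, Cox6b2 led all members with 479 in wildtype (rank 63 of all genes), 373 without Zbtb11, 423 without Zfp131 and 184 without either. Cox4i1 held 331, 235, 226 and 94.8, and Cox20 held 249, 183, 244 and 122. In Zfp131KO, Cox20 was thus nearly at its wildtype level. In complex V, Atp5c1, the gamma subunit of the rotor, held 268, 193, 196 and 101. Atp5d, the delta subunit, held 148, 57.7, 75.3 and 28.1, and Atp5h, a peripheral stalk subunit, held 121, 39.3 and 58.0, with no event in the double knockout. Atp5d and Atp5h had the lowest shares of their wildtype reads in Zbtb11KO among the genes named here.

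A larger share of members than of all genes stayed in the NELF lists, and the difference was not tested. The same held in each knockout for complex I, the mitochondrial ribosome, the citric acid cycle, glycolysis, further assembly factors and regulators of respiratory genes. The larger share was thus not particular to complexes II to V. Of 58 members listed in wildtype, 49 were listed in Zbtb11KO (84.5%, against 72.1% of all genes listed in wildtype), 50 in Zfp131KO (86.2%, against 73.8%) and 40 in the double knockout (69.0%, against 48.9%). The median log2 ratio to wildtype over genes still listed was -0.59 for members and -0.91 for all genes in Zbtb11KO. The same medians were -0.49 and -0.73 in Zfp131KO, and -1.41 and -1.76 with both genes deleted. Of genes with at least 50 wildtype reads, complex I kept 86.4%, 93.2% and 72.7% in Zbtb11KO, Zfp131KO and the double knockout. The mitochondrial ribosome kept 90.4%, 90.4% and 69.9%, and all genes 72.5%, 74.2% and 49.2%. Median ratios in Zbtb11KO were -0.68 for complex I and -0.71 for the mitochondrial ribosome, but -0.94 for further assembly factors and -0.96 for regulators. All knockouts share the wildtype list, so these are not independent. Members above wildtype numbered 2 in Zbtb11KO (Cox7b by 0.12 and Uqcc3 by 0.04, against 1.87% of all genes), 1 in Zfp131KO (Cox16 by 0.21, against 5.06%) and 0 in the double knockout (against 0.457%). The double knockout lay below both single knockouts at 49 of 58 members (84.5%, against 66.7% of all genes), and Zfp131KO lay above Zbtb11KO at 40 (69.0%, against 53.3%). Genes without an event counted as 0 reads, so a gene missing from a single knockout list could not lie above the double knockout there. The 49 members are all those listed in Zbtb11KO, so their share only repeats the share still listed (84.5%, against 72.1%). Genes missing from both single knockout lists could not count among the 40 either.

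In no knockout list stood 8 of the wildtype genes: Atp5g3, Cox4i2, Atp5pb, Cox19, Cox7a1, Cox6b1, Cox6a2 and Cox8c. Their wildtype NELF reads were few, from 58.0 (Cox8c) to 444.9 (Cox7a1). A further 9 were missing from the double knockout alone: Cox5b, Sdhb, Cox6a1, Sdhaf3, Atp5g1, Atp5h, Atp5o, Uqcc2 and Cox8a. Sdhaf1 was missing from Zbtb11KO and the double knockout. Absence from a list says that no event was called, not that NELF was at zero.

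**Figure D3:**
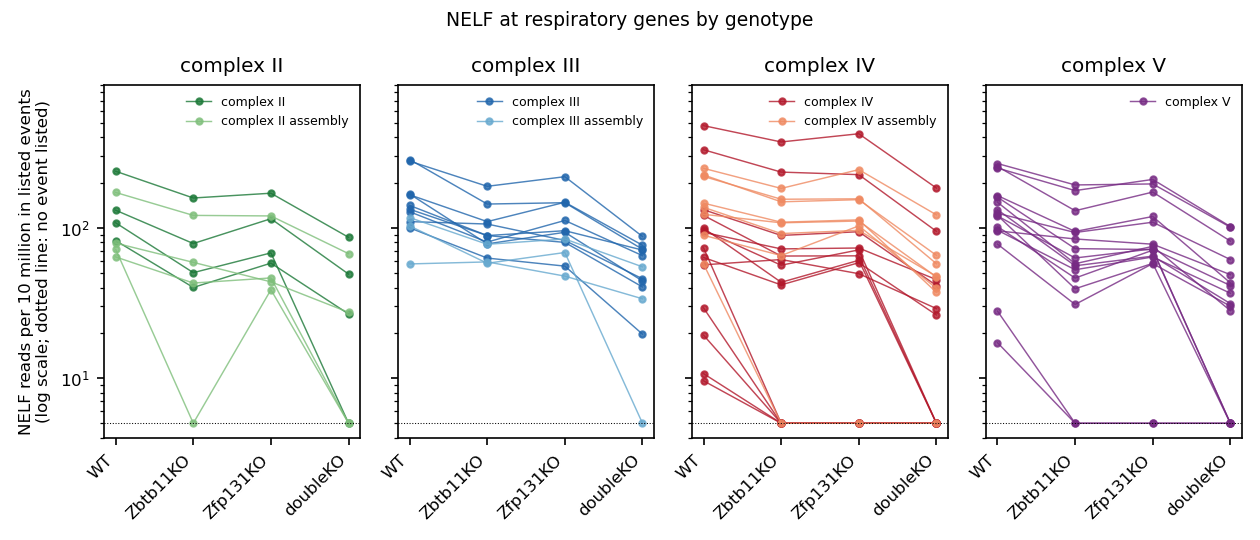
NELF reads per 10 M in listed events (log axis) for each gene in wildtype and the 3 knockout genotypes, 1 panel per complex; points on the dotted line had no listed event. Nearly all lines run down to the double knockout, as Cox6b2 does from 479 to 184.

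The same NELF table was deposited for both single knockouts. It is read here as Zbtb11KO, since its regions hold all 18009 events of the Zbtb11KO list and 0 of the 1158 events found in the Zfp131KO list alone. The labels do not settle which libraries its fold changes compare. This authors' deposited table had a region at 58 members, of which 30 were lower at an adjusted p under 0.05 (DESeq2, Benjamini-Hochberg over all regions), against 55.3% of 13317 genes with a region; 0 were higher, against 0.0901%. Unadjusted p-values in the authors' deposited table were under 0.05 at 36 members. Their median log2 fold change there was -0.81, against -0.97 over all genes in the authors' deposited table. Complex II fell at 4 of 4 genes, complex III at 6 of 9, complex V at 11 of 16 and complex IV at 3 of 14, by the calls of the authors' deposited table. Among assembly factors, 2 of 4 for complex II, 1 of 3 for complex III and 3 of 8 for complex IV were called lower in the authors' deposited table. Differences between these groups were not tested. After centring on the median of all regions in the authors' deposited table (-1.04), 0 members were called and their median was above that centre by 0.23.

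Called falls in the authors' deposited table ran from -1.74 to -0.71. They were led by Cox7a1, the heart and muscle form of a complex IV subunit (-1.74 in the authors' deposited table, with an SE of 0.42 and an adjusted p of 0.00065). Cox8c, a testis form, stood at -1.66 in the authors' deposited table, followed by Atp5j (-1.57), Uqcrh (-1.47), Atp5d (-1.46) and Atp5o (-1.36). At the region nearest to Atp5j it was -0.93 in the authors' deposited table (adjusted p 0.0849, not called), and within 0.5 kb -0.96 (adjusted p 0.0149). Another gene lay within 1 kb of the NELF region at 14 of the 30 members called lower and at 7 of the 28 not called. The signal in those regions cannot be given to 1 gene. No call was made in the authors' deposited table for Uqcc3, an assembly factor of complex III (0.33, SE 0.39, adjusted p 0.442), Cox7b (0.10) or Uqcrfs1 (0.02, SE 0.33, adjusted p 0.949). With ZBTB11 at the gene, 25 of 46 members were lower in the authors' deposited table, and without it 5 of 12; over all genes with a region these were 4556 of 7710 and 2814 of 5607. Other gene lists of energy metabolism were read from the authors' deposited table in the same way: 28 of 44 complex I genes, 43 of 74 mitochondrial ribosome genes, 5 of 13 citric acid cycle genes, 9 of 12 glycolysis genes, 13 of 20 further assembly factors and 7 of 9 regulators of respiratory genes were lower, with 0 higher in each.

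H3K4me3, a mark of active promoters, moved in both directions in Zbtb11KO. Of 58 members with a region in the authors' deposited table, 28 were lower, against 24.8% of 14057 genes, and 14 higher, against 43.0%. Their median was -0.48 and that of all genes 0.18 in the authors' deposited table. Complex II had 3 of 4 genes lower and 0 higher in the authors' deposited table, complex III 6 lower and 3 higher of 9, complex IV 6 and 2 of 14, and complex V 7 and 5 of 15. Assembly factors of complex IV split evenly in the authors' deposited table, with 3 lower and 3 higher of 9. By the authors' deposited table, complex I had 23 lower and 7 higher of 43, the mitochondrial ribosome 41 and 12 of 74, glycolysis 8 and 1 of 12 and further assembly factors 8 and 6 of 20. The citric acid cycle had 4 lower and 6 higher of 12, and the regulators 0 lower and 7 higher of 9, in the authors' deposited table.

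Among the called rises, which ran from 0.48 to 2.68 in the authors' deposited table, Cox15 was at 2.68 (SE 0.09), Atp5d at 2.33, Cox4i1 at 2.13, Cox11, which delivers copper to complex IV, at 2.01, Atp5b at 1.93 and Sdhaf2, which attaches flavin to Sdha's product, at 1.92. The falls ran from -2.21 to -0.36 in the authors' deposited table, led by Cox4i2, the lung form of subunit IV (-2.21, SE 0.59, adjusted p 0.00084). Atp5e, the epsilon subunit of ATP synthase, stood at -1.22, Atp5j2 at -1.17, Uqcrb at -1.15, Cox7c at -1.08 and Uqcrq at -1.03 in the authors' deposited table. The region read for Atp5b lies past the gene's 3′ end beside Baz2a, and the region nearest to Atp5b stood at -1.13 (adjusted p 2.37e-21) in the authors' deposited table. At the annotated start of Atp5d the authors' deposited table gave -0.05 (adjusted p 0.835). Another gene lay within 1 kb of the region at 9 of the 14 members called higher, at 10 of the 28 called lower and at 4 of the 16 not called; the 9 include all 6 genes named here as rises (Cutc beside Cox15, Cbarp beside Atp5d, Emc8 beside Cox4i1, Stxbp4 beside Cox11, Baz2a beside Atp5b and Cpsf7 beside Sdhaf2), so the mark there cannot be given to 1 gene. The part of shared regions in the split was not tested.

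The reads in the listed domains, which have no depth scaling, gave a different sign for most of the called rises. Over members the median log2 ratio of listed reads in Zbtb11KO was -0.62, and over all genes -0.42, with 3 members above 0 (5.36%, against 22.1%): Cox15 (0.33), Atp5d (0.31) and Sdhaf2 (0.12). The 14 members called higher had a median listed ratio of -0.13 (-0.44 to 0.33), the 28 called lower -0.71 (-1.91 to -0.32) and the other members listed in both -0.57. Table and listed values ranked the genes alike (Pearson r 0.83, Spearman rho 0.78 over 56 members, which are not independent and share the libraries), but the spread in the authors' deposited table was wider. Median wildtype reads were 4160 for rises, 3160 for falls and 2490 for genes not called, and median promoter GC was 60.3%, 56.3% and 55.0%. GC ranged from 46.7% to 76.7% in rises and from 43.3% to 69.3% in falls, and over 44 members it had a Pearson r of 0.24 and a Spearman rho of 0.14 with the fold change in the authors' deposited table. Their part in the result was not tested.

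**Figure D4:**
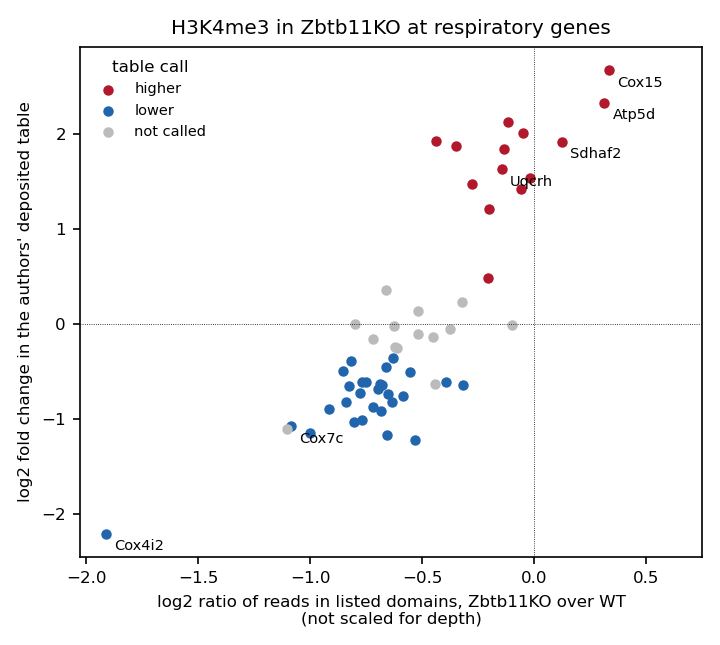
H3K4me3 in Zbtb11KO against wildtype, 1 point per respiratory gene: log2 ratio of reads in listed domains, without depth scaling (horizontal), and log2 fold change in the authors' deposited table (vertical), coloured by the table's call. Genes called higher sit between -0.44 and 0.33 on the horizontal axis, most below 0.

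In Zfp131KO, 27 of 58 members were higher for H3K4me3 in the authors' deposited table, against 33.4% of genes, and 1 lower, against 4.18%. The median was 0.22 for members and 0.24 for all genes in the authors' deposited table. The rises were small, from 0.23 to 0.96 in the authors' deposited table. Cox6b2 led at 0.96 (SE 0.13), then Atp5e (0.71), Atp5d (0.69), Uqcc3 (0.69), Sdhaf1 (0.56) and Cox5b (0.54) in the authors' deposited table. Cox7b, a small subunit of complex IV on the X chromosome, was the single fall (-0.80 in the authors' deposited table, with an SE of 0.24 and an adjusted p of 0.00485). Complex II and its assembly factors rose at 3 of 4 genes each in the authors' deposited table, complex III at 4 of 9, complex IV at 5 of 14 and complex V at 7 of 15. At an adjusted p under 0.01 the authors' deposited table called 15 higher and 1 lower.

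Listed H3K4me3 reads had a median above wildtype in the double knockout and below it in both single knockouts. The median log2 ratio of members was -0.13 in Zfp131KO (all genes -0.10) with 14 members above 0 (24.6%, against 36.6%), and 0.74 in the double knockout (all genes 0.72) with 56 of 56 above 0 (against 90.1%). Depth is unknown for these lists, so a shift shared by all genes cannot be told apart from depth. Cox6b2 had 3538 reads in wildtype, 3304 without Zbtb11, 5287 without Zfp131 and 8572 without either. Cox15 had 2932, 3696, 2672 and 5600, and Cox7b 2235, 1559, 976 and 2778. Sdhaf3 had 1404, 783, 1437 and 2240, and Cox4i2 had 309, 82, 159 and 329. Of these, Cox15 was the one above wildtype in Zbtb11KO, and Cox6b2 and Sdhaf3 were above it in Zfp131KO.

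The order of genotypes was counted gene by gene, and the difference from all genes was not tested. The double knockout lay above both single knockouts at 55 of 57 members (96.5%, against 92.5% of all genes), and Zfp131KO above Zbtb11KO at 50 (87.7%, against 73.3%). No domain was listed at Cox6a2 in Zbtb11KO and the double knockout or at Cox14 in Zfp131KO, and Cox7b2 gained one in the double knockout. The wildtype domains were small, with 54 reads over 225 bp at Cox6a2 and 18 reads over 55 bp at Cox14. In all, 57 of 58 members kept a domain in each knockout (98.3%, against 97.1% to 98.3% of all genes).

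H3K27ac, a mark of active promoters and enhancers, had few calls at these genes. Of 54 members with a domain in wildtype, all 54 kept one in Zbtb11KO (against 84.3% of all genes) and 53 in Zfp131KO (98.1%, against 86.5%). Sdhaf3 had none in Zfp131KO, but its wildtype domain was small, with 16 reads over 74 bp. Atp5g2 had a domain in both knockouts and not in wildtype. In Zbtb11KO 1 of 55 members was higher in the authors' deposited table, against 3.7% of genes, and 0 were lower, against 9.94% (2 had an unadjusted p under 0.05). That gene was Cox7b (1.10 in the authors' deposited table, with an SE of 0.35 and an adjusted p of 0.0108). In Zfp131KO, Cox6b2 was higher (0.81 in the authors' deposited table, with an SE of 0.27 and an adjusted p of 0.0117), against 4.56% of genes, and Cox11 lower (-1.05 in a region of 39 bp), against 11.1%. Each of these regions had another gene within 1 kb, so neither call can be given to 1 gene. The region of Cox11 nearest to its end, its widest, and that within 0.5 kb stood at -0.00 in the authors' deposited table (adjusted p 0.994), so this call rests on the short region; with each of these choices the calls were 2 higher and 0 lower.

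SIN3A rose at a few members. In Zbtb11KO 7 of 58 were higher in the authors' deposited table, against 5.6% of genes, and 1 lower, against 2.33%. Uqcrfs1, where ZFP131 but little ZBTB11 was listed, led in the authors' deposited table with 1.32 (SE 0.21, adjusted p 2.55e-07), then Cox7b (1.08), Atp5k (0.87), Cox6a1 (0.65), Cox8a (0.63), Uqcc3 (0.50) and Atp5md (0.46). Atp5d was lower by the authors' deposited table (-0.67), in a region away from its annotated start, where the value was -0.27 (adjusted p 0.35); its widest region stood at 0.05. The widest region of Cox6a1 was not called in the authors' deposited table (0.45, adjusted p 0.0976). In Zfp131KO 3 of 56 were higher in the authors' deposited table, against 5.62% of genes, and 0 lower, against 1.57% (8 had an unadjusted p under 0.05). These were Uqcrfs1 (1.21 in the authors' deposited table, with an SE of 0.22 and an adjusted p of 1.76e-05), Cox6a1 (0.80) and Atp5md (0.46), each also higher in Zbtb11KO; centred on the median of all regions, Atp5md stood at 0.43 (adjusted p 0.0557). Both comparisons use the same wildtype libraries. SIN3A events were kept at 56 of 58 members in Zbtb11KO (96.6%, against 94.2% of all genes).

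Regions around the genes were read from the same tables, over 2 Mb on either side. Around Uqcrfs1 the median SIN3A fold change was 0.10 in Zbtb11KO and 0.30 in Zfp131KO in the authors' deposited table, below the gene's own 1.32 and 1.21. Around Cox7b in Zbtb11KO the medians in the authors' deposited table were 1.09 for SIN3A, 1.54 for H3K27ac and 1.11 for H3K4me3, and -0.07 for NELF, where all regions had -1.04. The SIN3A and H3K27ac rises of Cox7b were thus as large as, or smaller than, the median of its surroundings, for which the cause was not tested. In Zfp131KO the medians around Cox7b in the authors' deposited table were -0.06 for H3K4me3 and 0.13 for SIN3A. For NELF, Cox7b was the 1 member of 65 whose surroundings lay 0.5 or more from the median of all regions in the authors' deposited table. For H3K4me3 in Zbtb11KO there were 6 such members, among them Uqcrb, whose own -1.15 stood beside -0.87 around it, and Cox4i1, whose 2.13 stood beside -0.73, in the authors' deposited table.

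CHD4 and H3K27me3 touched few members. For CHD4 in Zbtb11KO the authors' deposited table had 9 members with a region and called 0 (0 also by an unadjusted p under 0.05), against 2.1% of genes higher and 0.636% lower. In Zfp131KO 2 of 10 were lower in the authors' deposited table, against 6.09%: Atp5d (-1.03, SE 0.37, adjusted p 0.0347) at its 3′ end near Midn and Cox4i1 (-0.99, SE 0.33, adjusted p 0.024) near Emc8. The call at Atp5d was lost within 2 kb (-0.29, adjusted p 0.566) and that at Cox4i1 in the nearest region (-0.60, adjusted p 0.199) of the authors' deposited table. CHD4 events were kept at 4 of 8 members in Zbtb11KO (50.0%, against 37.8%) and 5 of 8 in Zfp131KO (62.5%, against 63.5%).

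H3K27me3 domains stood at Cox4i2, Cox8c and Uqcc2 in all 3 genotypes measured, so 3 of 3 members kept one (against 91.1% of all genes in Zbtb11KO and 90.8% in Zfp131KO). At Uqcc2, an assembly factor of complex III, the main domain ran over 744 bp with 220 reads in wildtype, 1103 bp with 300 in Zbtb11KO and 919 bp with 263 in Zfp131KO. Depth is unknown for these lists, so the reads and widths cannot be compared between genotypes. The 1 assembly factor of complex III with a region was not called in the authors' deposited table (1.3 in Zbtb11KO and 0.25 in Zfp131KO). Cox6b2 and Cox6a2 had a domain in Zfp131KO alone, each of 12 reads over 37 and 41 bp. In Zbtb11KO the authors' deposited table called Cox8c lower (-1.37, adjusted p 0.0264) in a region of 40 bp, 1 of 3 members, against 3.51% of genes lower and 6.46% higher; the region nearest to Cox8c stood at 0.12 (adjusted p 0.872). In Zfp131KO 0 of 5 members were called in the authors' deposited table, against 9.96% higher and 6.59% lower (1 had an unadjusted p under 0.05).

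**Figure D5:**
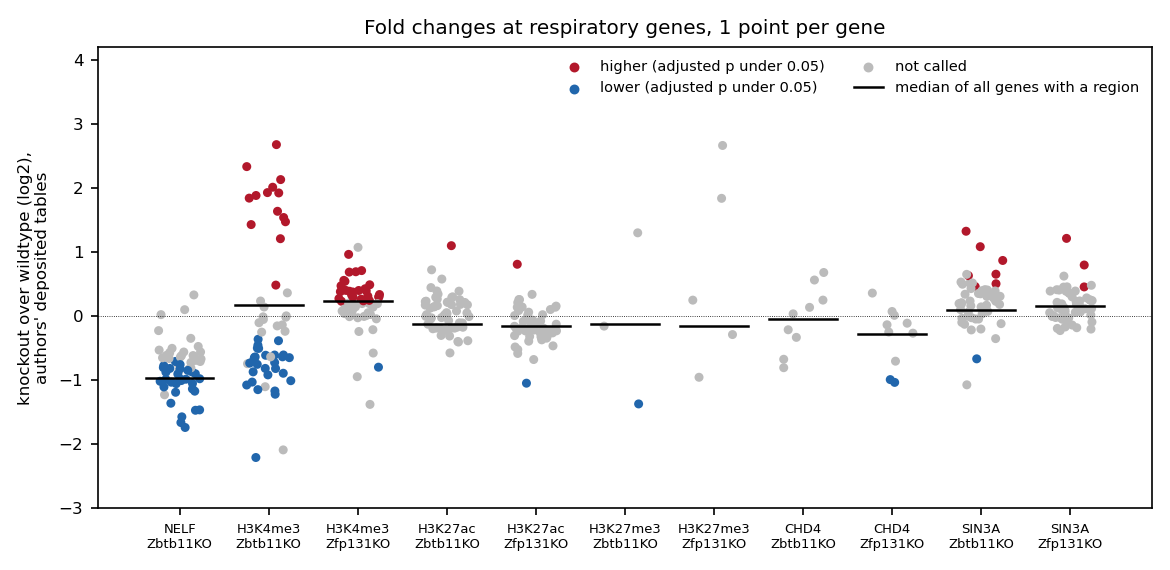
Log2 fold change over wildtype in the authors' deposited tables (vertical axis) for each respiratory gene with a region, by target and knockout, with black lines at the median of all genes. NELF in Zbtb11KO sits below 0 for nearly all genes, and H3K4me3 in Zbtb11KO runs from -2.21 to 2.68.

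The 7 tissue-restricted forms of complex IV subunits (Cox4i2, Cox6a2, Cox6b2, Cox7a1, Cox7b2, Cox8b and Cox8c) are set beside the other 58 members. H3K27ac was listed in wildtype at 2 of 7 and at 52 of 58 others, and H3K27me3 at 2 of 7 and 1 of 58. NELF was listed at 5 of 7 in wildtype and at 1 of 7, Cox6b2, in each knockout; the other members went from 53 of 58 to 48 without Zbtb11, 49 without Zfp131 and 39 without either. In wildtype, Cox8c, Cox6a2, Cox4i2 and Cox7a1 held 58.0, 64.5, 117.0 and 444.9 NELF reads, and Cox6b2 held 2898.5. The lowest sum of any member in a knockout list was 140.4 reads (Uqcr11, double knockout). Cox8c, Cox6a2 and Cox4i2 lay below that already in wildtype, so their absence may reflect low signal. Cox6b2 had entries for NELF, H3K4me3 and H3K27ac in every genotype in which each was measured. Another gene lay within 1 kb of its H3K27ac region in Zfp131KO, so the signal there cannot be given to Cox6b2 alone. The difference between these forms and the rest was not tested.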

How the data were processed

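The members and gene lists were chosen with earlier results of these data known. Per the submitters' processing notes, reads were aligned to mm10 with Bowtie 1.0.1 and tables made with DESeq2 1.28.1; the step that counted reads for the tables is not given in the sources used here. Event lists (MultiGPS, per the file headers) hold the authors' signal per event as reads, its log2 fold over scaled control reads, and a score (a p-value on a log2 scale), for the libraries of a group together. Domain lists (SEED, per the file headers) hold the authors' counts of reads per domain and a p-value. In the authors' deposited tables, each region has its mean signal, log2 fold change, standard error, and raw and adjusted p-values.

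The files hold no values per library, so the count test planned was replaced by the authors' calls at an adjusted p under 0.05, with no test of its own. Within 1 kb of either gene end, the region of highest mean signal was read. Listed reads were summed per gene; ratios needed 50 wildtype reads, and NELF reads were divided by the group's total and given per 10 M (mega-reads). Full values are given for the 8 and 4 members with the most ZBTB11 and ZFP131 reads, up to 6 rises and 6 falls per table, leading NELF genes per complex, genes leaving or joining lists, and tissue forms. Surroundings of 2 Mb were added after seeing the data. The NELF table for Zfp131KO equalled that for Zbtb11KO, and the SIN3A list for Zfp131KO equalled the CHD4 list, so neither was used. The H3K4me3 table for Zbtb11KO gives no adjusted p for 12071 regions. Depth was 24.0 to 71.6 M reads per group. The overlap search was checked against an exhaustive search on simulated regions, and calls after centring on a simulated set of fold changes. The authors' own calls were not checked in this way. Python 3.11.15, numpy 2.4.6 and pandas 2.3.3 were used, with matplotlib 3.10.9 for figures.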

Additional observations from a re-analysis of the deposited data

How the results depend on the processing

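No paired analysis was possible because the files hold no values per library; leaving out replicates and a count fit were not run for the same reason, nor was NELF in Zfp131KO as a table. The cause was not tested for the changes below except where fewer regions or a stricter threshold make them. NELF in Zbtb11KO: 30 members were called, 13 at an adjusted p under 0.01 and 0 with fold changes centred on the median of all regions. At an adjusted p under 0.01 the counts were 16 (from 28) for H3K4me3 in Zfp131KO, 0 (from 1) and 1 (from 2) for H3K27ac in Zbtb11KO and Zfp131KO, 0 (from 1) for H3K27me3 in Zbtb11KO, 0 (from 2) for CHD4 in Zfp131KO and 4 (from 8) for SIN3A in Zbtb11KO. The widest region per gene, an alternative added after seeing the data, gave 5 for SIN3A in Zbtb11KO, 0 for H3K27me3 in Zbtb11KO and 1 for CHD4 in Zfp131KO. For CHD4 in Zfp131KO, the nearest region gave 1, the annotated start alone 0 and a window of 2 kb 1. The annotated start alone gave 0 for H3K27me3 in Zbtb11KO and 1 (from 3) for the H3K27me3 list, a window of 2 kb gave 1 (from 0) for H3K27me3 in Zfp131KO, and a window of 0.5 kb gave 3 (from 6) for the ZFP131 list. Signs turned at Atp5b for H3K4me3 in Zbtb11KO (-1.13 with a window of 0.5 kb, the annotated start alone and the nearest region), at Atp5d for H3K4me3 in Zbtb11KO (-0.05, annotated start alone), CHD4 in Zfp131KO (0.17, widest region) and SIN3A in Zbtb11KO (0.05, widest region), and at Cox8c for H3K27me3 in Zbtb11KO (0.12 nearest, 0.13 widest). Of the other values, 129 counts and medians stayed within the limits set (1.5 times for counts), which compares totals, not directions. Among them H3K27me3 in Zbtb11KO had 1 higher and 0 lower at the nearest region (from 0 and 1), H3K27ac in Zfp131KO 2 and 0 (from 1 and 1) with a window of 0.5 kb, the nearest or the widest region, and SIN3A in Zbtb11KO 7 and 0 (from 7 and 1) at the annotated start alone. At named genes, 246 values stayed past the threshold and 25 did not. Pooled lists give no spread between libraries, and domain lists no depth.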
